A study of Homo sapiens with 4 samples.

Results

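SRRM2, SRRM1, SON and PNN encode proteins of the nuclear speckles, and the peaks listed on their transcripts were compared between FLAG-ZFR eCLIP and size-matched input. These 4 of the 17764 genes with a listed peak were taken by their Ensembl identifiers, ENSG00000167978 for SRRM2, ENSG00000133226 for SRRM1, ENSG00000159140 for SON and ENSG00000100941 for PNN. They held 284 of the 595484 peaks in the deposited lists: 98 in SRRM2, 68 in SRRM1, 96 in SON and 22 in PNN. SRRM2 was chosen by its share of peaks, which was lower in eCLIP than in input, so every eCLIP against input value of SRRM2 is a description with no test. Tests are given for SON, SRRM1 and PNN. The cells of all 4 libraries were polyclonal HEK-293 Flp-In TREx cells with FLAG-ZFR stably integrated at the FRT site, which places a transgene at a defined genomic position. They were given doxycycline at 1 µg/mL for 48 to 72 h to switch the transgene on, and were crosslinked with ultraviolet light at 400 mJ/cm2. The groups were 2 eCLIP libraries and 2 size-matched inputs, and all 4 carried the induced transgene, so the comparison is of immunoprecipitated with size-matched input RNA and not of cells with and without FLAG-ZFR. The labels do not state separate cultures for the libraries of a group, so every p-value is set against a spread between libraries that may be technical.

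Nuclear speckles are bodies between the chromosomes in which splicing factors gather. SRRM2 (also called SRm300) and SON are large proteins rich in serine and arginine that form the core of the speckle, and the mature transcript of each holds a very long coding exon. SRRM1 (also called SRm160) is a splicing coactivator that associates with spliced RNA, and PNN (pinin) is a speckle protein that binds the exon junction complex through its partners and was also described at cell junctions. ZFR is a zinc finger protein with a DZF domain that binds RNA and takes part in the choice of alternative exons. In eCLIP, fragments crosslinked to the tagged protein are pulled down and sequenced, and the size-matched input shows which RNA was abundant in the same gel region. The peaks therefore lie on the RNAs of these genes and say nothing of the location of their proteins.

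The lists held from 11204 to 479308 peaks per library, and from 102084 to 3075352 reads in those peaks. The sequencing depth itself is unknown, because whole libraries were not counted here. Each list was called on its own library, so a share of peaks or of reads can move with the length of the list.

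SRRM2 had 98 peaks on the plus strand of chromosome 16, between positions 2802699 and 2821386 of hg19, a span of 18.7 kb. Of these, eCLIP replicates 1 and 2 listed 44 and 12, while inputs 1 and 2 listed 23 and 19. These were 0.918 and 2.86 peaks per 10000 peaks of the eCLIP libraries against 3.65 and 17.0 of the inputs. Both eCLIP values lay below both inputs, which was so in 10.2% of the 8914 genes compared (those with at least 10 peaks over the 4 libraries), and this is the difference for which the gene was chosen. Input 2 stood highest: SRRM2 ranked 12 among its 5891 genes by number of peaks, against 326 of 11275 in input 1, 798 of 7728 in eCLIP replicate 2 and 3082 of 15839 in eCLIP replicate 1.

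By reads the picture of SRRM2 was another. The eCLIP libraries had 1374 and 63 reads in these peaks against 108 and 103 for input, where the whole number that ends each peak's name was read as its reads. As shares these were 4.47 and 2.74 per 10000 reads in peaks for eCLIP against 4.33 and 10.1 for input. Of these 4 values eCLIP replicate 1 and input 1 lay close together, eCLIP replicate 2 lay below both and input 2 above all others, so the groups overlapped. The peaks of eCLIP replicate 1 were tall, with a mean of 31.2 reads against 6.42 over that whole list, while the other 3 libraries had means between 4.70 and 5.42. The lowest peak listed for SRRM2 in eCLIP replicate 1 held 7 reads, and only 1.89% of the 8152 genes with 10 or more peaks there had a lowest peak of at least 7 reads. In the other libraries the lowest SRRM2 peak held 3 reads. All 44 peaks of eCLIP replicate 1 had a p-value of at most 0.001 in the authors' lists, against 4 of 12 in eCLIP replicate 2, 6 of 23 in input 1 and 4 of 19 in input 2. Among peaks at that limit SRRM2 took 3.95 and 4.36 per 10000 in eCLIP against 7.57 and 12.4 in input, and the log2 difference was -1.14. Both eCLIP values stayed below both inputs, as in 9% of 3334 genes. With each list limited to its 11204 peaks of lowest p-value, the length of the list of input 2, SRRM2 kept 24, 4, 7 and 19 peaks, or 21.4 and 3.57 per 10000 in eCLIP against 6.25 and 17.0 in input. The highest p-value kept was 5.7e-10 and 0.0020 for the eCLIP libraries against 0.0038 and 0.050 for input, so the lists differ in how strong a peak had to be. In them the eCLIP libraries were the highest and the lowest of the 4, and the log2 difference of eCLIP minus input went from -1.96 to -0.20.

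**Figure D1:**
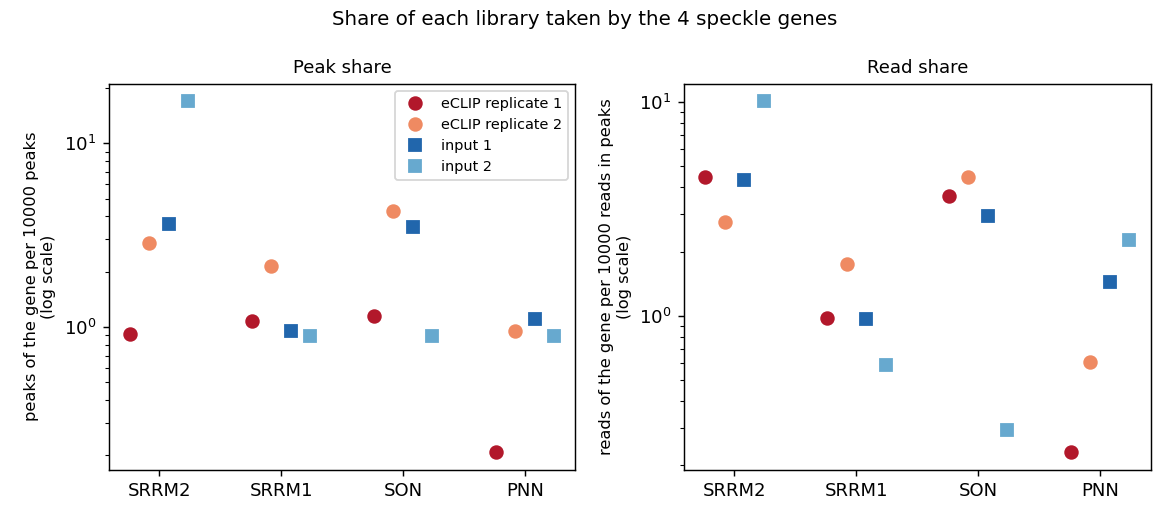
Shares of the 4 genes in each library, as peaks per 10000 peaks (left) and as reads per 10000 reads in peaks (right), both on a log axis, with 1 point per library and no error bars. SRRM2 lies highest in input 2 on both scales, SON lies lowest in input 2 on both, and the PNN read shares of both eCLIP libraries lie below both inputs.

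SON, the other speckle core gene, did not take the order of SRRM2, which only 10.2% of the 8914 genes had. Its 96 peaks lay on the plus strand of chromosome 21 between 34916786 and 34949121, a span of 32.3 kb. The eCLIP lists named 55 and 18 peaks of SON and the input lists 22 and 1, or 1.15 and 4.30 per 10000 peaks against 3.49 and 0.893. The eCLIP and input values overlapped, with eCLIP replicate 2 highest and input 2 lowest. The log2 difference of eCLIP minus input was 0.25 (SE 0.84, 95% interval -1.49 to 2.00; limma, adjusted p = 0.995), in a fit that called 0% of 8914 genes in either direction, with 112 higher and 62 lower at an unadjusted p under 0.05. That interval takes in large changes either way. SON was lower in eCLIP for the libraries numbered 1 (0.329 times the input share) and higher for those numbered 2 (4.81 times, on 1 input peak). For number 1 alone, Fisher's exact test gave an adjusted p of 0.0043, in a test that called 2.90% of 17017 genes lower and 0.793% higher. For number 2 the adjusted p was 0.661, in a test that called 0.0302% of 9950 genes higher and 0.0603% lower. That test sets 2 libraries against each other and not the conditions. Limited to peaks with a p-value of at most 0.001, the number 1 comparison of SON turned to 3.77 times the input share. That value rests on 53 eCLIP peaks against 1 input peak and is given with no test. Without eCLIP replicate 2 the limma difference of SON was -0.52, and without input 2 it was -0.50, so leaving out either library turned its sign.

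By reads, both eCLIP libraries had the higher SON shares. The peaks held 1122 and 103 reads in eCLIP against 73 and 3 in input, or 3.65 and 4.49 per 10000 reads in peaks against 2.93 and 0.294. Both eCLIP values lay above both inputs, as in 25.0% of the 8914 genes, so that order alone does not set SON apart. The log2 difference was 1.46 (SE 0.82, 95% interval -0.29 to 3.21; limma, adjusted p = 0.935), and it did not pass; the fit called 0% of genes, with 242 higher and 96 lower at an unadjusted p under 0.05. It was 0.41 without input 2 and 2.52 without input 1 (limma, adjusted p = 0.873 and 0.054). The weak peaks were unevenly spread: 17 of the 22 peaks of input 1 held the minimum of 3 reads, and 1 had a p-value of at most 0.001, against 53 of 55 in eCLIP replicate 1 and 8 of 18 in eCLIP replicate 2. Among peaks at that limit SON took 4.75 and 8.73 per 10000 in eCLIP against 1.26 and 0 in input. In lists of equal length it took 19.6 and 9.82 per 10000 in eCLIP against 0.893 in each input. In both of these shorter lists SON reached the minimum of 10 peaks only through its eCLIP peaks, so they are given as values with no test. The share of all genes with that order in these lists is not given here, so the order does not set SON apart.

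Along SRRM2, eCLIP peaks gathered in clusters that left a thin stretch between them. Distances are given from the first peak of the gene over all libraries, by peak midpoint, and the stretches were chosen after the values were seen, so no test is given. From 15 to 18 kb (chromosome 16, 2817699 to 2820698) lay 19 of 44 peaks of eCLIP replicate 1 and 7 of 12 of eCLIP replicate 2, with 58.2% and 61.9% of the gene's reads. Input 1 had 8 of 23 peaks there and input 2 had 7 of 19, with 40.7% and 38.8% of the reads. The percentages of peaks were 43.2 and 58.3 for eCLIP against 34.8 and 36.8 for input, and their Wilson 95% intervals overlapped, the lowest running from 18.8% to 55.1%. From 10 to 15 kb (2812699 to 2817698) eCLIP replicate 1 had 5 peaks, or 11.4% (95% interval 4.95 to 24), and eCLIP replicate 2 had 2, or 16.7%. Input 1 had 7 peaks there, or 30.4% (15.6 to 50.9), and input 2 had 3, or 15.8%. By reads this stretch held 4.44% and 9.52% of the gene in eCLIP against 25.0% and 12.6% in input, so both eCLIP libraries were lower than both inputs by reads but not by peaks. In eCLIP replicate 1 the kilobase just before that stretch, from 9 to 10 kb, held 7 peaks and 20.3% of the reads. Input 1 had 2 peaks in that kilobase, input 2 had 1 and eCLIP replicate 2 had 0, which with 12 peaks allows up to 24.2% (Wilson 95% limit). Intervals cover counting error only.

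**Figure D2:**
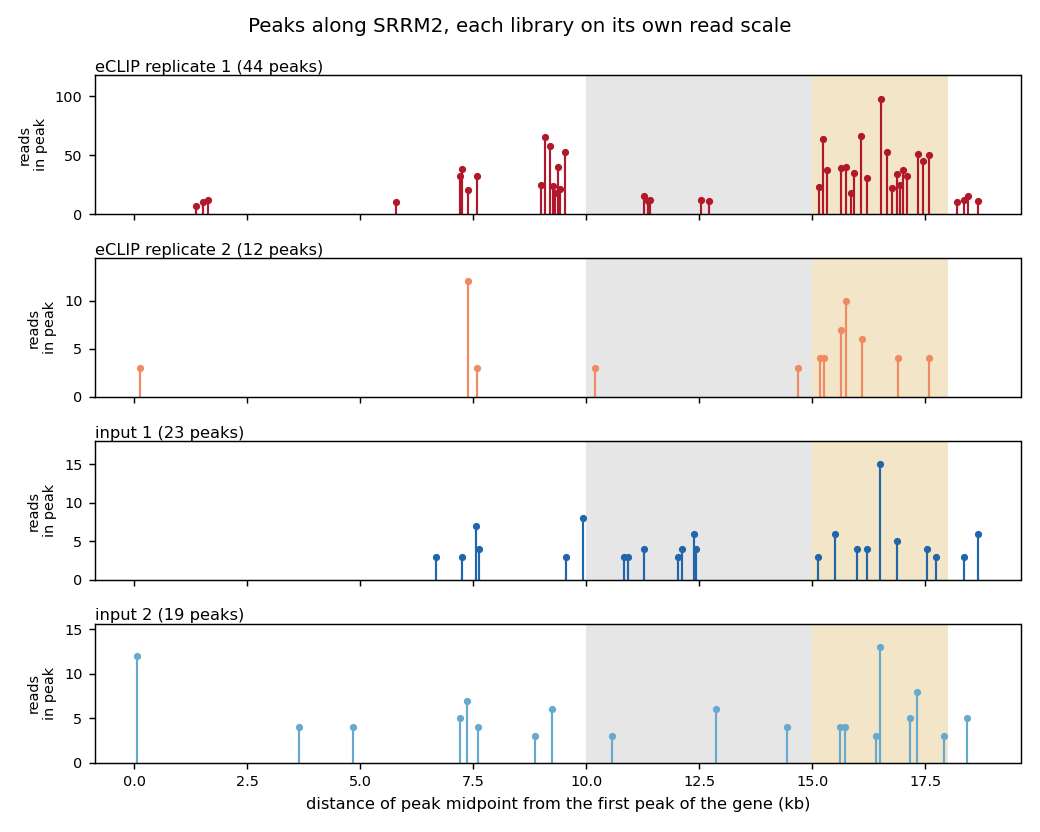
Reads in each SRRM2 peak against the distance of its midpoint from the first peak of the gene in kb, with 1 panel per library, each on its own read scale. Grey marks 10 to 15 kb and tan marks 15 to 18 kb; the 15 to 18 kb stretch holds 19 of 44 and 7 of 12 eCLIP peaks, and the tallest peak of 98 reads in eCLIP replicate 1.

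The tallest SRRM2 peak had counterparts in both inputs. At 2819171 to 2819250 eCLIP replicate 1 listed a peak of 98 reads, the highest of the gene there, with a p-value of 4.9e-56 in the authors' list. The highest peaks of both inputs lay inside it, with 15 reads from 2819176 to 2819223 in input 1 and 13 reads from 2819180 to 2819237 in input 2. No peak of eCLIP replicate 2 overlapped it. The highest SRRM2 peak of eCLIP replicate 2, with 12 reads, lay at 2810035 to 2810125, where eCLIP replicate 1 listed 20 reads and input 2 listed 7. Input 2 also had 12 reads at 2802699 to 2802838, the start of the span, where eCLIP replicate 2 had 3 reads from 2802828 to 2802850. That stretch had no peak of eCLIP replicate 1 or input 1.

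In SRRM2 more of the eCLIP replicate 1 peaks overlapped input peaks than in SON. Joined over the libraries wherever they shared a base, the SRRM2 peaks formed 66 sites: 27 with eCLIP peaks alone, 21 with input peaks alone and 18 with both, of which 9 were found in 3 libraries and 0 in all 4. The SON peaks formed 81 sites: 58 with eCLIP peaks alone, 21 with input alone and 2 with both. Of the eCLIP replicate 1 peaks, 19 of 44 in SRRM2 (43.2%) and 2 of 55 in SON (3.64%) overlapped an input peak. Over all genes 1.53% of eCLIP replicate 1 peaks met input 1 and 0.643% met input 2. For SRRM2 these were 25.0% and 22.7%, and for SON 1.82% with each input, so SON was not below the whole list by this count. Input 2 had 19 peaks in SRRM2 and 1 in SON, so the room for overlap differed, and the difference was not tested. The eCLIP replicate 1 peaks also covered more of the SRRM2 span, with 1913 of 18688 bases against 1658 of 32336 in SON. In input 1 the numbers of peaks were close, at 23 and 22, and 11 of 23 (47.8%, 95% interval 29.2 to 67) met eCLIP replicate 1 in SRRM2 against 1 of 22 (4.55%, 0.807 to 21.8) in SON. Over all genes 12.8% of input 1 peaks met a peak of eCLIP replicate 1, which lies between them.

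The eCLIP lists were also compared with each other. Of the eCLIP replicate 2 peaks, 9 of 12 in SRRM2 (75.0%, 95% interval 46.8 to 91.1) and 12 of 18 in SON (66.7%, 43.7 to 83.7) overlapped a peak of eCLIP replicate 1, against 33.1% over all genes. Of the eCLIP replicate 1 peaks met by eCLIP replicate 2, 12 of 13 in SON were free of input peaks, and 2 of 9 in SRRM2 were. Over all genes 1.53% and 0.643% of eCLIP replicate 1 peaks met inputs 1 and 2, so freedom from input was the usual case. The share among peaks met by eCLIP replicate 2 is not given. SRRM2 had 23 and 19 input peaks against 22 and 1 in SON, so the room for overlap differed, and the difference was not tested. The peaks met by eCLIP replicate 2 were the taller ones in eCLIP replicate 1, with a median of 39 reads against 24 for the rest in SRRM2 and of 31 against 13 in SON, though in SRRM1 the medians were 4 and 5.

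Along SON, a stretch towards the 3′ end of the span held a larger percentage of the eCLIP peaks, and one towards the 5′ end a larger percentage of the input 1 peaks. From 24 to 29 kb (chromosome 21, 34940786 to 34945785) lay 23 of 55 peaks of eCLIP replicate 1, or 41.8% (95% interval 29.7 to 55.0), and 13 of 18 of eCLIP replicate 2, or 72.2% (49.1 to 87.5). Input 1 had 3 of 22 there, or 13.6% (4.75 to 33.3), and the only input 2 peak lay elsewhere, at 34932667 to 34932702. The stretch held 61.1% and 77.7% of the SON reads of the eCLIP libraries and 13.7% of those of input 1. From 4 to 11 kb (34920786 to 34927785) the order was turned, with 12 of 55 peaks (21.8%, 12.9 to 34.4) and 1 of 18 (5.56%, 0.988 to 25.8) in eCLIP against 11 of 22 (50.0%, 30.7 to 69.3) in input 1. The tallest eCLIP peaks were in the 3′ stretch, with 54 reads at 34944686 to 34944726 in eCLIP replicate 1 and 15 reads at 34944592 to 34944638 in eCLIP replicate 2. Input 1 had at most 4 reads in any peak of that stretch, and its highest SON peak, of 6 reads, lay at 34936210 to 34936249. That peak lay in a stretch from 18 to 22 kb (34934786 to 34938785) with 6 peaks of input 1 and 0 of either eCLIP library. The stretch before it, from 13 to 18 kb (34929786 to 34934785), held 16 and 2 eCLIP peaks, 0 of input 1 and the 1 of input 2. These stretches too were chosen after the values were seen and carry no test.

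**Figure D3:**
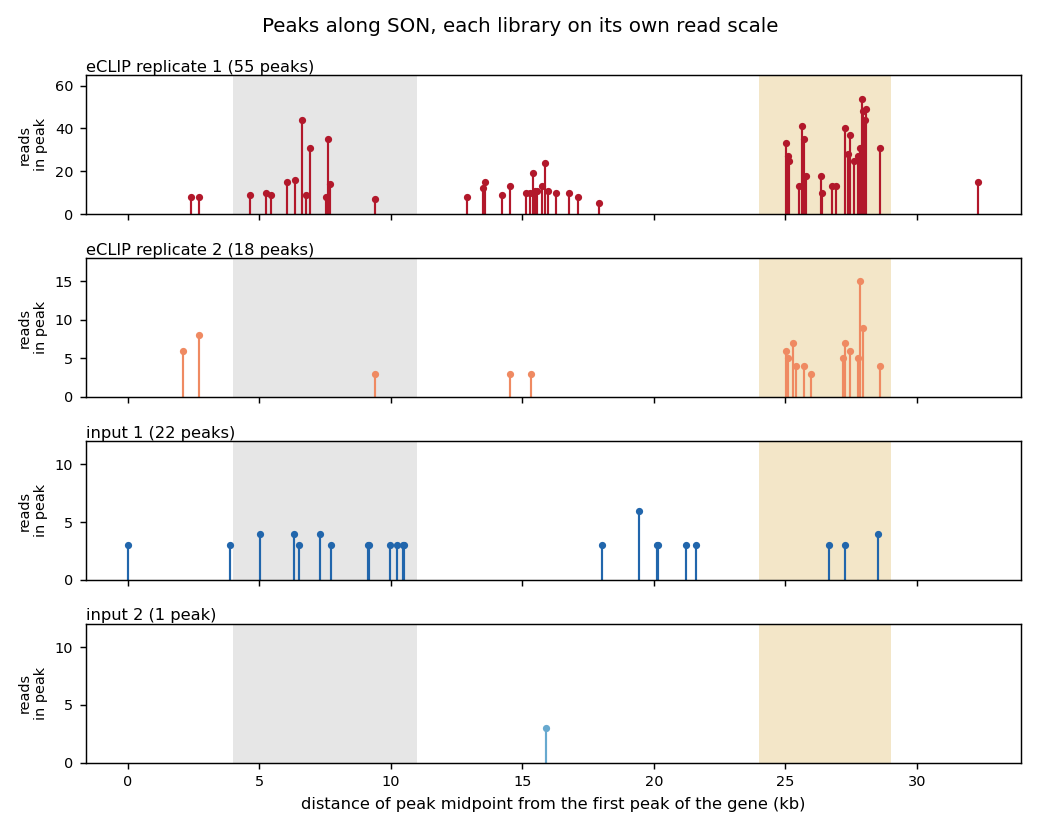
Reads in each SON peak against the distance of its midpoint from the first peak of the gene in kb, with 1 panel per library, each on its own read scale. Grey marks 4 to 11 kb and tan marks 24 to 29 kb; 23 of 55 and 13 of 18 eCLIP peaks lie in the tan stretch, and 11 of 22 input 1 peaks in the grey one.

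Whether the long coding exons of SRRM2 and SON behave alike could be asked only through such stretches, because the files carry no exons and no annotation of hg19 was used here. In both genes a stretch of several kilobases held a larger percentage of the gene's reads in input 1 than in either eCLIP library: 25.0% against 4.44% and 9.52% in SRRM2 from 10 to 15 kb, and 49.3% against 18.4% and 2.91% in SON from 4 to 11 kb. Input 2 had 12.6% of its SRRM2 reads there, and with 1 SON peak of 3 reads it cannot be read for SON. The genes differed in how many eCLIP replicate 1 peaks the stretch held, with 5 in SRRM2 and 12 in SON, and in their height, with up to 15 and 44 reads. The 2 stretches were chosen after the values were seen and differ in length. Neither their likeness nor their difference is therefore a test of whether the genes behave alike. Whether the stretches coincide with the long exons was not tested. A rule applied to every gene, which took the window of 6000 bases that held the most of its peaks with each library weighted alike, was fitted without a replicate block: 0% of 5311 windows passed in either direction by limma, with 199 higher and 7 lower at an unadjusted p under 0.05. For SON that window ran from 34930992 to 34936991, since the only peak of input 2 counted there as a whole library. It held 14 and 2 eCLIP peaks against 4 and 1 of input, and its log2 difference of eCLIP minus input was -0.51. This placement put the whole of input 2 inside, which favours a higher input value, so the difference is given with no test. With the window placed on the eCLIP libraries alone, from 34941789 to 34947788, the difference was 1.43, so the sign hung on where the window lay. That window was picked by the eCLIP peaks and held 23 and 13 of them against 3 and 0 of input. Such a placement favours a higher eCLIP value, so no test is given for it. For SRRM2 the window ran from 2815409 to 2821408 and held 54.5% and 66.7% of the eCLIP peaks against 43.5% and 52.6% of the input peaks.

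**Figure D4:**
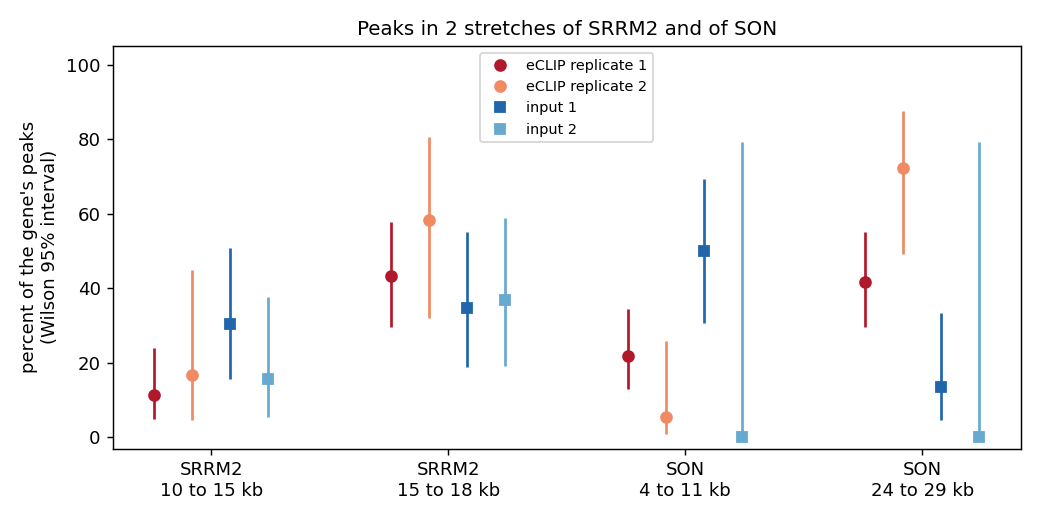
Percent of the gene's peaks in each of 2 stretches of SRRM2 and of SON, with 1 point per library and Wilson 95% intervals that cover counting error only. The SON intervals from 24 to 29 kb run from 49.1% to 87.5% in eCLIP replicate 2 and from 4.75% to 33.3% in input 1, the SRRM2 intervals overlap, and input 2 rests on 1 peak in SON.

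SRRM1, the splicing coactivator, had most of its peaks in eCLIP replicate 1. Its 68 peaks lay on the plus strand of chromosome 1 between 24970260 and 24999517, a span of 29.3 kb. There were 52 and 9 peaks in eCLIP and 6 and 1 in input, or 1.08 and 2.15 per 10000 peaks against 0.951 and 0.893. Both eCLIP values were above both inputs, as in 21.1% of the 8914 genes, and those of eCLIP replicate 1 and input 1 were close. SRRM1 reached the minimum of 10 peaks only through its eCLIP peaks, so its fits are given without that filter, over 17764 genes. The log2 difference was 0.53 (SE 0.78; limma, adjusted p = 0.853), and the fit called 0 genes. By reads the shares were 0.975 and 1.74 per 10000 reads in peaks for eCLIP against 0.963 and 0.588 for input. The order was the same, as in 25.0% of the 8914 genes, but eCLIP replicate 1 and input 1 nearly tied. The log2 difference of read share was 0.53 (SE 0.68; limma without the filter, adjusted p = 0.843). The peaks were low: the highest held 10 reads in eCLIP replicate 1, 9 in eCLIP replicate 2 and 6 in each input, and the mean in eCLIP replicate 1 was 5.77 reads, near the 6.42 of that list.

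SRRM1 peaks of eCLIP replicate 2 lay close together. Of its 9 peaks 7 fell in the densest 6000-base window, from 24984883 to 24990882, with 85.0% of its reads, and 16 of 52 peaks of eCLIP replicate 1 did, with 29%. Input 1 had 0 of 6 peaks in that window, and the 1 peak of input 2, at 24987797 to 24987811, lay inside it. The rule put the window where peaks were densest, so high counts in it are partly built in. A window placed on the inputs held 2 of the 9 peaks of eCLIP replicate 2. The log2 difference of the first window was 0.69, and it was -0.10 with the window placed on the inputs. Placement on the eCLIP libraries alone gave the same window as placement on all libraries, which favours a higher eCLIP value. The window also reached the minimum number of peaks only through its eCLIP peaks, so its difference is given with no test. Of the eCLIP replicate 2 peaks 3 of 9 (33.3%, 95% interval 12.1 to 64.6) met eCLIP replicate 1, near the 33.1% over all genes, and the highest, of 9 reads at 24984836 to 24984930, did not.

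PNN had the fewest peaks and lay lowest in eCLIP replicate 1. Its 22 peaks lay on the plus strand of chromosome 14 between 39647091 and 39651948, a span of 4.86 kb. The counts were 10 and 4 in eCLIP and 7 and 1 in input, or 0.209 and 0.955 per 10000 peaks against 1.11 and 0.893, and the groups overlapped. The log2 difference was -0.56 (SE 0.82, 95% interval -2.26 to 1.14; limma, adjusted p = 0.995). For the libraries numbered 1 Fisher's exact test gave 0.188 times the input share with an adjusted p of 0.051, which did not pass, 0.103 with touching peaks joined and 0.249 at a p-value limit of 0.001. For those numbered 2 it gave 1.07 times with an adjusted p of 1. By reads PNN was below both inputs in both eCLIP libraries, an order found in 9.08% of the 8914 genes. The values were 0.231 and 0.610 per 10000 reads in peaks for eCLIP, from 71 and 14 reads, against 1.44 and 2.25 for input, from 36 and 23 reads. The log2 difference was -1.36 (SE 0.71, 95% interval -2.88 to 0.16; limma, adjusted p = 0.935), and it did not pass.

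The tallest PNN peaks of both inputs fell on 1 site. Input 2 listed a single PNN peak, of 23 reads at 39650855 to 39650880, with a p-value of 6.9e-23 in the authors' list. The highest PNN peak of input 1, of 9 reads, lay at 39650859 to 39650878 inside it. No eCLIP peak overlapped that site: the nearest of eCLIP replicate 1 ran from 39650803 to 39650835 with 13 reads, and the nearest of eCLIP replicate 2 from 39650916 to 39650926 with 3. A site at 39650664 to 39650738 held peaks of both eCLIP libraries, of 9 and 5 reads, and of input 1, of 8. The kilobase from 3 to 4 kb around them held 4 and 3 eCLIP peaks and 4 and 1 input peaks.

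**Figure D5:**
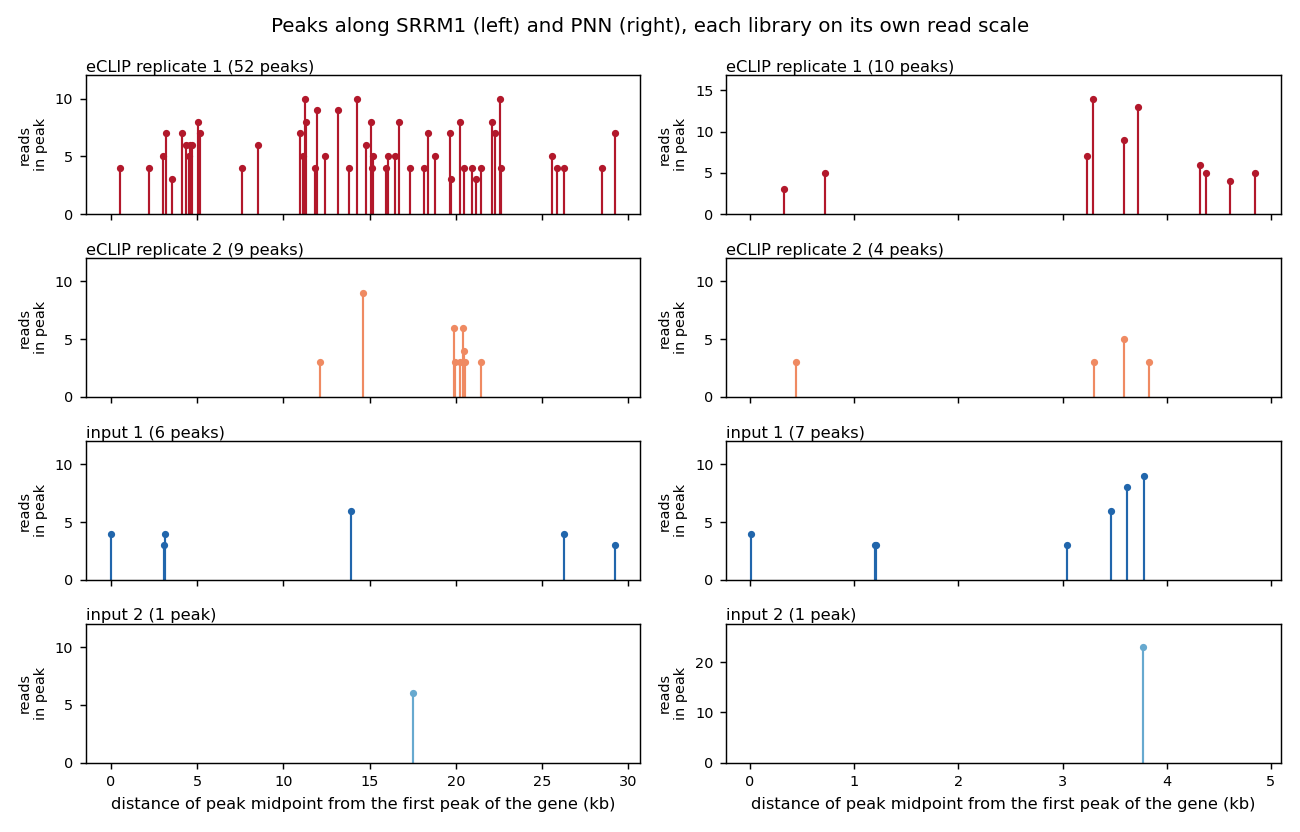
Reads in each peak of SRRM1 (left) and PNN (right) against the distance of its midpoint from the first peak of the gene in kb, with 1 panel per library, each on its own read scale. SRRM1 has 52 low peaks of at most 10 reads in eCLIP replicate 1, and the tallest PNN peak is the 23 reads of input 2.

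Set side by side, the point values of the 4 genes did not share a direction. The peak share of SRRM2 was the ground for its choice, and no difference of SON, SRRM1 or PNN passed. The values are therefore a description and do not show that the genes truly differ. The log2 differences of peak share were -1.96 in SRRM2, -0.56 in PNN, 0.25 in SON and 0.53 in SRRM1, where the median over the 8914 genes was 0.16. For read share, where that median was also 0.16, the order ran from PNN (-1.36) over SRRM2 (-0.83) and SRRM1 (0.53) to SON (1.46). No other gene was listed on the plus strand within the spans of the 4, and on the minus strand 1 peak of 4 reads lay in the SON span, in eCLIP replicate 1, so these peaks were not counted under overlapping genes. By the distance between log2 peak shares over the 4 libraries, the genes most like SRRM2 were ENSG00000173726.6 (distance 0.74) and ENSG00000074800.9 (0.84). The first held 47 and 18 peaks in eCLIP and 23 and 13 in input, and the second 34 and 15 against 23 and 11. Most like SON were ENSG00000116754.9 (0.21), with 63 and 16 against 23 and 1, and ENSG00000109920.8 (0.25), with 67 and 20 against 23 and 1. The files pair no names with these identifiers.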

How the data were processed

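The submitters' processing notes name cutadapt, SAMtools, STAR and hg19. The peak caller, the annotation and tool versions were not given in the sources used here. Each library has 1 deposited peak list, with the authors' p-value for each peak and a score computed from that p-value. The whole number in each deposited peak name was read as reads, which the files do not state.

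Peaks and reads per gene were scaled to 10000 per library, put on the log2(value + 0.5) scale, which understates changes of low genes, and tested in R 4.3.3 by limma 3.58.1 (lmFit, then eBayes with a mean-variance trend, two-sided, Benjamini-Hochberg over all features with at least 10 peaks, threshold 0.05). For SRRM1 the fits of peak and read share without that minimum are given. The window differences of SRRM1 and SON are given with no test. Same-numbered libraries were compared with Fisher's exact test (SciPy 1.17.1, two-sided). Overlap means at least 1 shared base on a strand (bedtools 2.31.1 for whole lists). Alternatives were another pseudocount, no filter, a p-value limit, merged peaks, lists of equal length, other windows, a replicate block and each library left out. Coordinates are hg19, counted from 1. Other genes of the speckle list were not matched, since no table pairs names with these identifiers; cell type markers were not checked for the same reason. The text names the 4 members and the 2 genes nearest to SRRM2 and to SON. Members and lists were chosen with earlier results of these data known.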

Additional observations from a re-analysis of the deposited data

How the results depend on the processing

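An exact permutation test of 2 libraries against 2 could not reach 0.05, and each list was called on its own, so list length limits every share. SON had 1 peak in input 2. With the replicate block, limma called 4 genes by peak share, 11 by read share and 186 windows, against 0 without it. By peak share and by read share none of SON, SRRM1 and PNN passed. Same-numbered deviations correlated at 0.397 over genes; the labels do not say what a number shares. Leaving out 1 library gave 0 to 695 called genes by peak share, 0 to 666 by read share and 0 to 893 windows, the highest each time without eCLIP replicate 2; the cause was not tested. The differences then ran from -0.52 to 1.02 for SON by peak share and from -0.050 to 1.43 for SRRM1 by window. By window, SON turned to 0.057 with 3000 bases and to 1.43 with windows placed on eCLIP, and SRRM1 to -0.10 with windows placed on inputs. Fisher's exact test for number 1 called 135 genes higher and 493 lower, 18 and 178 with touching peaks merged, and 9 and 83 at a p-value limit of 0.001; for number 2 it called 3 and 6, and 0 and 0 at that limit, which leaves fewer peaks. At that limit 100% of the 4 eCLIP replicate 2 peaks of SRRM2 and 0% of the 3 of SRRM1 met eCLIP replicate 1. The remaining alternatives kept the direction of every member and no tested member passed in limma; by reads, SON ran from 0.41 (without input 2) to 2.52 (without input 1), with adjusted p of 0.873 and 0.054. PNN had too few peaks for a fit at that limit or in lists of equal length, and SRRM1 in the latter; by window, neither of them nor SON could be fitted at that limit.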
